A study of Homo sapiens with 8 samples.

Results

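Both arms of human chromosome 3 were followed through 8 lists of open chromatin regions from 2 oral squamous carcinoma cell lines. All peaks on chromosome 3 were merged across the lists wherever they shared at least 1 bp. A merged region was placed on the short arm (3p) or the long arm (3q) by the side of the centromere on which it starts, in build hg19. This gave 5370 of the 80588 regions on chromosomes 1 to 22 and X, with 1946 on 3p, 3424 on 3q and 0 in between.

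The assay was ATAC-seq, in which a transposase, Tn5, cuts DNA that is not packed away and leaves sequencing adapters there. KOSC-2 is called radiosensitive and HSC-3 radioresistant in the labels, and each class is represented by a single line. Each line received 0 or 8 Gy of radiation and was frozen 24 hours later. There were 2 libraries for each line and dose, so 4 libraries for each line. Whether the replicates came from separate cultures is not given in the sources used here, so a p-value here speaks of the spread among the libraries alone, and that spread may be technical.

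Chromosome 3 is among the chromosomes most often rearranged in carcinomas of the mouth. Loss of 3p, which carries the fragile-site gene FHIT and the von Hippel-Lindau gene VHL, and gain of 3q, which carries the lipid kinase gene PIK3CA and the squamous lineage factors SOX2 and TP63, are common findings. A peak caller compares the reads at a site with the reads around it, so a peak list holds both a set of open sites and, indirectly, the level of reads in their surroundings. Both readouts were compared between the lines. The sources used here hold no gene positions or sequence of hg19, so regions are given by position, and their genes and bases were not analysed here.

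The lists held 22504 to 51693 peaks on chromosomes 1 to 22 and X. Depth, taken as the genome-wide background of each library, ran from 20.2 to 64.8 reads per 10 kb. The median enrichment at regions called in all 8 libraries was lowest in 3 libraries, at 25.7 in KOSC-2 0 Gy replicate 1, 34.7 in HSC-3 0 Gy replicate 2 and 21.9 in HSC-3 8 Gy replicate 1, against 49.6 to 67.3 in the other 5. The 2 HSC-3 libraries among them had the shortest lists. Those 3 libraries stand apart, and the arm results were also computed without them.

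The long arm was the more densely marked. Regions lay at 32.9 per Mb on 3q and 21.8 per Mb on 3p, against 27.5 per Mb over all chromosomes. Regions called in all 8 libraries lay at 5.32 per Mb on 3q, 3.51 per Mb on 3p and 4.38 per Mb over all chromosomes. The first region of 3p began at position 754873 and the last ended at 90141092. On 3q they ran from 93560218 to 197687731. The stretch without any region across the centromere was 3.42 Mb long. Within the arms the longest stretch without a region was chr3:1160191-3080338 on 3p (1.92 Mb) and chr3:163491355-164903508 on 3q (1.41 Mb). The median gap between neighbouring regions was 18.1 kb on 3p and 15.8 kb on 3q. Median peak width over the 8 libraries was 394.5 to 472 bp on 3p and 413 to 463 bp on 3q.

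The short arm held a smaller share of the peaks in every HSC-3 library than in any KOSC-2 library. The KOSC-2 lists held 950, 1125, 1301 and 1044 peaks on 3p, in the order 0 Gy replicates 1 and 2 and 8 Gy replicates 1 and 2, which is used for all values by library. The HSC-3 lists held 1001, 566, 485 and 1021. As a share of each library's peaks, 3p took 2.48%, 2.47%, 2.52% and 2.46% in KOSC-2. In HSC-3 it took 2.39%, 2.41%, 2.16% and 2.37%. The 4 KOSC-2 values lie close together, and HSC-3 8 Gy replicate 1 lies below all others. The means were 2.48% ± 0.0235 and 2.33% ± 0.118 (SD, n = 4 each), a difference of -0.154 percentage points by an exact two-sided permutation test (p = 0.0286, the smallest that 4 against 4 can give, Benjamini-Hochberg adjusted p = 0.0532 over 41 arms). Without HSC-3 8 Gy replicate 1 the difference was -0.0955, still without overlap. With all lists cut to the length of the shortest, it was -0.154 and the lines overlapped. Separation of this kind was common in these lists. The lines did not overlap on 53.7% of the 41 arms, HSC-3 being the lower on 29.3%.

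The long arm also took a lower mean share in HSC-3, but the lines overlapped. It held 1722, 1929, 2245 and 1831 peaks in KOSC-2 and 1701, 1004, 874 and 1736 in HSC-3. The shares were 4.50%, 4.24%, 4.34% and 4.32% in KOSC-2 and 4.06%, 4.27%, 3.88% and 4.03% in HSC-3. HSC-3 0 Gy replicate 2, at 4.27%, lay above the lowest KOSC-2 library. The means were 4.35% ± 0.11 and 4.06% ± 0.161 (SD, n = 4 each), and the exact permutation test gave p = 0.0571 (adjusted p = 0.0868). Without the 3 libraries of low enrichment the difference was -0.258 percentage points and the lines no longer overlapped.

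The balance of the arms did not separate the lines. Of the peaks on both arms, 3q held 64.4%, 63.2%, 63.3% and 63.7% in KOSC-2 and 63.0%, 63.9%, 64.3% and 63.0% in HSC-3. The lowest and the highest of these 8 values belong to different lines, and the ranges cover each other almost fully. The means were 63.7% ± 0.574 and 63.5% ± 0.692 (SD, n = 4 each), with a difference of -0.106 percentage points (exact permutation p = 0.8, adjusted p = 0.8 over 18 chromosomes with peaks on both arms). The lines did not overlap on 44.4% of those chromosomes. Without the 3 libraries of low enrichment the KOSC-2 and HSC-3 values for chromosome 3 did not overlap either, with a difference of -0.427 (exact permutation p = 0.2, 3 libraries against 2).

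**Figure D1:**
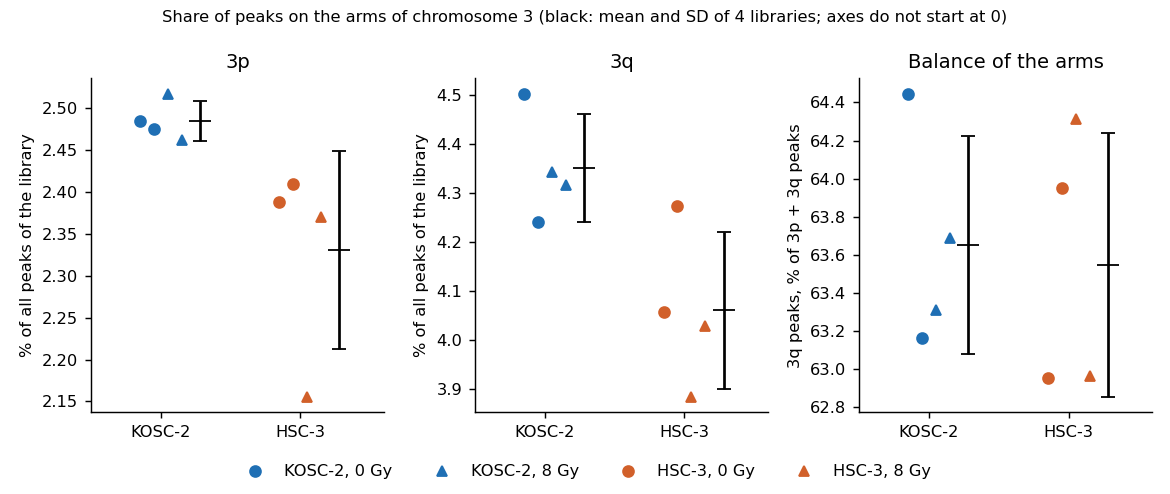
Share of each library's peaks on 3p and on 3q, and 3q peaks as a percentage of the peaks on both arms, by line (circles 0 Gy, triangles 8 Gy, black marks the mean and SD of 4 libraries). The lines do not overlap for 3p (2.46% to 2.52% against 2.16% to 2.41%), overlap for 3q, and overlap for the balance of the arms; the axes do not start at 0.

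Along the chromosome, the bins differed from each other far more than the lines did in most bins. On 3p the richest 10 Mb bin was bin 5 (40 to 50 Mb), where the KOSC-2 mean was 0.508% and the HSC-3 mean 0.494%. The poorest was bin 9 (80 to 90 Mb), with 0.0751% and 0.0592%. On 3q, by the mean over all libraries, the richest was bin 19 (180 to 190 Mb) and the poorest bin 17 (160 to 170 Mb), where the means were 0.238% and 0.213%, although in HSC-3 bin 11 was poorer still. The median size of the log2 ratio between the line means was 0.13 over the 20 bins of chromosome 3, against 0.20 over 296 bins of all chromosomes.

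In 5 of 20 bins (25%) the lines did not overlap, against 47% of the 296 bins. Of the 5, 3 were lower in HSC-3 and 2 higher. Their exact permutation p was 0.0286 each, and the adjusted p over all bins was 0.0608, so none passed. With 5 Mb bins 10 of 35 (28.6%) did not overlap, against 41.7% of 532 over all chromosomes. Without the 3 libraries of low enrichment 12 of 20 (60%) did not, against 74.5% of 298, with 3 libraries set against 2. In each setting the share on chromosome 3 was below that of all bins.

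Bin 11 (100 to 110 Mb), close to the centromere on 3q, had the largest difference. Its lists held 120, 147, 173 and 127 peaks in KOSC-2 and 87, 39, 28 and 100 in HSC-3. The shares were 0.314%, 0.323%, 0.335% and 0.299% in KOSC-2 and 0.208%, 0.166%, 0.124% and 0.232% in HSC-3. Every HSC-3 value is below every KOSC-2 value, and the HSC-3 libraries differ among themselves more than the KOSC-2 ones. The means were 0.318% ± 0.0149 and 0.183% ± 0.0474 (SD, n = 4 each), a log2 ratio of -0.80, which placed bin 11 at rank 7 from the lowest of 296.

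Bin 1 (0 to 10 Mb), the end of the short arm, came next. It held 83, 110, 108 and 95 peaks in KOSC-2 and 55, 37, 29 and 57 in HSC-3. The shares were 0.217%, 0.242%, 0.209% and 0.224% in KOSC-2 and 0.131%, 0.158%, 0.129% and 0.132% in HSC-3. Here the libraries of each line lie close together with a wide space between the lines. The means were 0.223% ± 0.0140 and 0.137% ± 0.0134 (SD, n = 4 each), a log2 ratio of -0.70 and rank 11 from the lowest. In the order of RefSeq's GRCh38.p14 table, the named protein-coding genes nearest this end of the chromosome are the cell adhesion genes CHL1, CNTN6 and CNTN4 and then the interleukin 5 receptor gene IL5RA; no peak was assigned to them.

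Bin 10 (90 to 100 Mb), which spans the centromere, was the third with a lower share. It held 0.196%, 0.185%, 0.201% and 0.191% in KOSC-2 and 0.138%, 0.153%, 0.129% and 0.149% in HSC-3, a log2 ratio of -0.44. The 2 bins with a higher share in HSC-3 differed far less. Bin 14 (130 to 140 Mb) had means of 0.425% and 0.475%, and bin 3 (20 to 30 Mb) had 0.214% and 0.239%, each a log2 ratio of 0.16. With lists of equal length bin 3 overlapped, and bin 14 overlapped when covered bases were counted in place of peaks.

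Much of the lower share of chromosome 3 in HSC-3 lay in bins 1, 10 and 11. With these 3 bins taken out, chosen after their values were seen and so given with no test, the rest of the chromosome held 6.10% ± 0.123 of the peaks in KOSC-2 and 5.93% ± 0.227 in HSC-3 (SD, n = 4 each). The difference was then -0.173 percentage points, of which -0.0656 lay on 3p and -0.107 on 3q. All 3 values overlapped between the lines. The bins taken out were those lower in HSC-3 without overlap, so a smaller difference was bound to follow. The overlap of the rest therefore decides nothing.

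**Figure D2:**
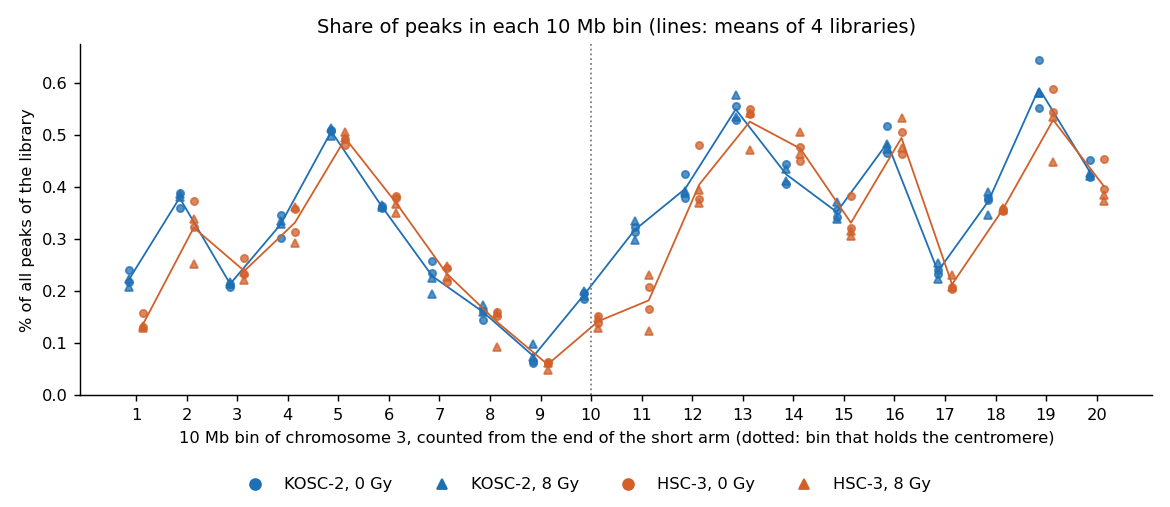
Share of each library's peaks in the 20 bins of 10 Mb along chromosome 3 (points are libraries, lines the means of 4 libraries per cell line, and the dotted line marks the bin with the centromere). All HSC-3 libraries lie below all KOSC-2 libraries in bins 1, 10 and 11 and above them in bins 3 and 14, and the other 15 bins overlap.

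In windows of 2 Mb, chosen after the bins had been seen, the lower share extended over neighbouring windows. The limits of the stretches given here were set after the window values had been seen. Their contrast with the neighbouring stretches follows at least in part from that choice. From 0 to 12 Mb the lists held 127, 152, 158 and 139 peaks in KOSC-2 and 79, 52, 38 and 83 in HSC-3. The mean share was 0.325% ± 0.0132 and 0.193% ± 0.0217 (SD, n = 4 each), a ratio of 0.593. In the next 8 Mb, from 12 to 20 Mb, the ratio was 0.962. From 98 to 110 Mb the lists held 166, 198, 236 and 173 peaks in KOSC-2 and 124, 60, 46 and 140 in HSC-3. The mean share was 0.434% ± 0.0199 and 0.270% ± 0.0523 (SD, n = 4 each), a ratio of 0.623. On the far side, from 110 to 120 Mb, the ratio was 1.02, and between the centromere and this stretch, from 92 to 98 Mb, it was 0.731.

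In 3 of the 99 windows of chromosome 3 (3.03%) all 4 KOSC-2 lists held peaks and none of the HSC-3 lists did, against 1.82% of 1427 windows of all chromosomes. The window from 0 to 2 Mb, the outermost of 3p, held 2, 4, 5 and 5 peaks in KOSC-2. The window from 78 to 80 Mb held 3, 2, 10 and 4. The window from 94 to 96 Mb held 8, 6, 8 and 6. The reverse, peaks in all HSC-3 lists and in none of the KOSC-2 lists, was found in 0 of the 1427 windows.

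**Figure D3:**
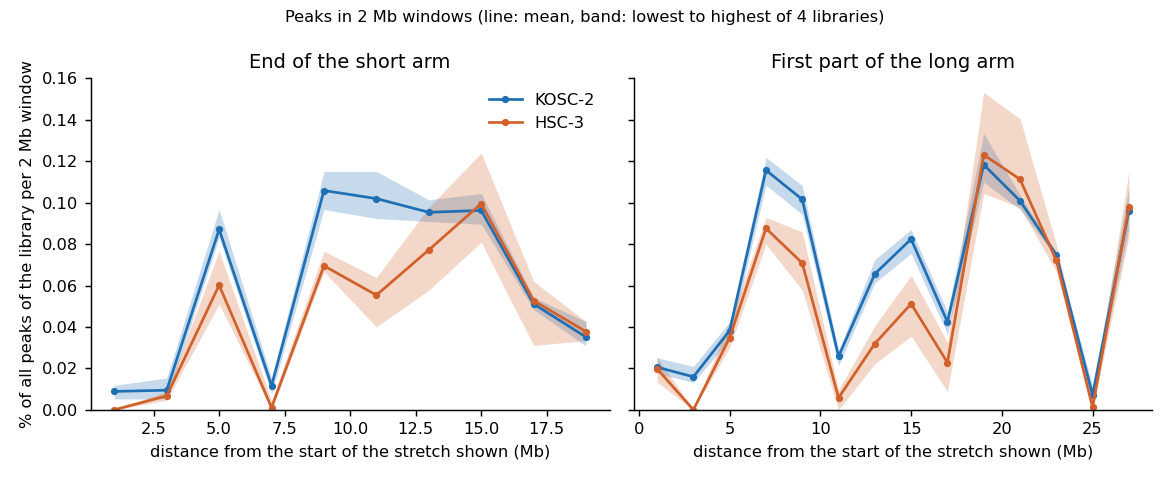
Share of peaks per 2 Mb window at the end of the short arm (from 0 Mb) and in the first part of the long arm (from 92 Mb), against the distance from the start of each stretch; lines are means and bands the lowest to highest of 4 libraries. The HSC-3 mean lies below the KOSC-2 mean in every window up to 12 Mb on 3p and up to 18 Mb of the second stretch, and beyond these the bands overlap in every window shown.

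The level of reads around the peaks was compared next. The local background is the number of reads the caller expected at a peak from its surroundings, recovered from the authors' fold and p-value. It was taken in regions called in all 8 libraries, as the log2 ratio of the median on an arm to the median of the same library over all 12827 such regions. DNA copy number, mappability and diffuse accessibility all enter this level and cannot be told apart in it. On 3q (554 regions) it was 0.15, 0.11, 0.13 and 0.15 in KOSC-2 and -0.03, 0.04, -0.10 and -0.01 in HSC-3. All KOSC-2 libraries lie above the library median, and all HSC-3 libraries lie below every KOSC-2 library. The means on the log2 scale were 0.13 ± 0.02 and -0.02 ± 0.06 (SD, n = 4 each), a difference of -0.16 (exact permutation p = 0.0286, adjusted p = 0.0509 over 41 arms). The lines did not overlap on 56.1% of the arms, HSC-3 being lower on 29.3% and higher on 26.8%.

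On 3p (314 regions) the level was below the library median in all 8 libraries, at -0.17, -0.19, -0.19 and -0.22 in KOSC-2 and -0.28, -0.30, -0.36 and -0.21 in HSC-3. HSC-3 8 Gy replicate 2 overlapped with KOSC-2. The difference was -0.10 (exact permutation p = 0.0571, adjusted p = 0.0837). With the reads of the peak itself taken off, the lines did not overlap, at a difference of -0.11.

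In every library the level was higher on 3q than on 3p. The difference of the arms was 0.31, 0.30, 0.32 and 0.37 in KOSC-2 and 0.25, 0.34, 0.26 and 0.19 in HSC-3. Its mean over the 8 libraries, 0.29, ranked 2 from the highest, with its sign, of 18 chromosomes with both arms measured. Chromosomes 4, 5, 6, 7 and 18 had larger differences in the other direction, from -0.41 to -0.31. Between the lines it overlapped, with means of 0.33 and 0.26 and a difference of -0.06 (exact permutation p = 0.114, adjusted p = 0.158), where 50% of the chromosomes did not overlap. The arms thus differed in the same direction in both lines, and the HSC-3 mean was the lower one on each arm, without overlap on 3q alone.

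By bin, the level was lower in HSC-3 without overlap in 5 of 20 bins (1, 10, 11, 13 and 20) and higher in 0. Over 284 bins of all chromosomes with at least 10 such regions, 41.2% did not overlap, 20.1% with HSC-3 lower and 21.1% with HSC-3 higher. The lowest adjusted p of these exact permutation tests was 0.0694. Bin 1 (18 regions) stood at 0.37, 0.30, 0.39 and 0.32 in KOSC-2 and at -0.61, -0.54, -0.45 and -0.53 in HSC-3. The end of the short arm was thus above the library median in each KOSC-2 library and below it in each HSC-3 library. The difference, -0.88, ranked 3 from the lowest of 284 bins. Bin 11 (24 regions) stood at 0.36, 0.57, 0.47 and 0.55 in KOSC-2 and -0.01, -0.43, -0.63 and -0.13 in HSC-3, a difference of -0.79 and rank 7. Bin 10 followed at -0.51, and bins 13 and 20 differed by -0.27 each.

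Peak share and local background were both lower in HSC-3, without overlap, in bins 1, 10 and 11, and in 0 bins of chromosome 3 did they separate in opposite directions. These 2 counts were 3 and 0 of 20 bins on chromosome 3, and 32 and 0 of 284 bins over all chromosomes, a share of the same order. Across the 20 bins of chromosome 3 the log2 ratio of the shares and the difference in background had a Pearson r of 0.76 and a Spearman rho of 0.42. Without bins 1 and 11 (n = 18) r was 0.33, so the relation on this chromosome rests largely on those bins. Over all 284 bins r was 0.79 and rho 0.78. These correlations are across bins of the same libraries and the same reads, which are not independent, and are given as a description. The part of the read level in the peak shares was not tested.

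In the stretch from 0 to 12 Mb (23 regions called in all 8 libraries) the background stood at 0.38 in KOSC-2 and -0.53 in HSC-3, and from 98 to 110 Mb (39 regions) at 0.26 and -0.40. The limits of both stretches had been set after the values were seen. In the neighbouring stretches the lines differed by -0.10 from 12 to 20 Mb, by -0.07 from 110 to 120 Mb and by -0.34 from 92 to 98 Mb, the last over 9 such regions.

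**Figure D4:**
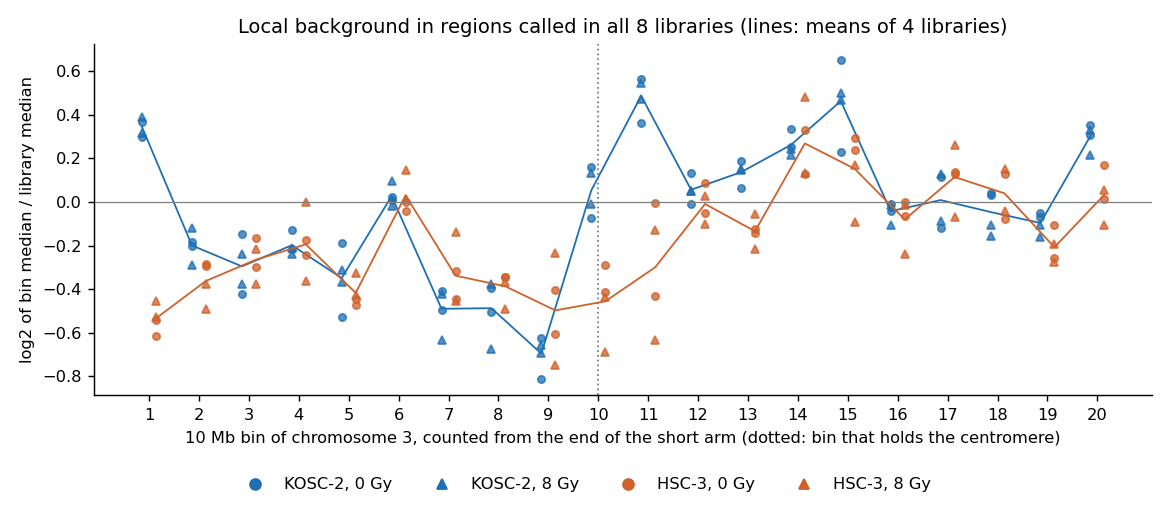
Local background in regions called in all 8 libraries, as the log2 ratio of a bin's median to the library's median, for the 20 bins of 10 Mb (points are libraries, lines the means of 4, dotted line the bin with the centromere). KOSC-2 stands at 0.30 to 0.39 and HSC-3 at -0.61 to -0.45 in bin 1, and the lines also part in bins 10, 11, 13 and 20.

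The strength of regions shared by all libraries was compared through their rank by p-value among the same 12827 regions in each library. The median rank of the 3p regions, as a percentile, was 46.6, 43.0, 45.8 and 45.9 in KOSC-2 and 39.4, 39.2, 40.4 and 39.2 in HSC-3. Shared sites on the short arm thus ranked lower in each HSC-3 library, with a difference of -5.78 percentile points (45.3 ± 1.62 against 39.5 ± 0.569, SD, n = 4 each). The exact permutation test gave p = 0.0286 and the adjusted p was 0.0451 over 41 arms, where 63.4% of the arms did not overlap, 36.6% with HSC-3 lower and 26.8% with HSC-3 higher. Ranked by the authors' fold in place of the p-value, the difference was -4.39 and the lines overlapped. Without the 3 libraries of low enrichment it was -0.631 and the lines overlapped. Without HSC-3 0 Gy replicate 2 alone it was -3.73.

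On 3q the median percentile was 60.1, 58.7, 54.1 and 56.8 in KOSC-2 and 52.7, 56.6, 51.1 and 48.2 in HSC-3, with overlap (exact permutation p = 0.0571, adjusted p = 0.0808). Ranked by fold, HSC-3 was the higher on average, by 2.36 points, again with overlap. The difference was -2.50, with no overlap, when the 3 libraries of low enrichment were left out. By bin, shared regions ranked lower in HSC-3 without overlap in bins 1, 5, 11, 13 and 20 and higher in bins 3 and 8, that is in 7 of 20 bins, against 45.8% of 284 bins. Bin 1 had the widest difference, KOSC-2 having a mean percentile of 62.7 and HSC-3 one of 32.8. Bin 11 had 76.0 and 54.4. In bin 8 (70 to 80 Mb) the order was the reverse, HSC-3 ranking 11.9 points above the KOSC-2 mean of 24.1.

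Regions open in one line only were mostly KOSC-2 regions. A region was counted as line-only where all 4 libraries of one line and none of the other called it. On 3p there were 52 KOSC-2-only regions (2.67% of its regions) and on 3q 59 (1.72%), against 2.07% over all chromosomes. HSC-3-only regions numbered 6 on 3p (0.308%) and 1 on 3q (0.0292%), against 0.3% over all chromosomes. Of the 660 regions of 3p open in 4 of 4 KOSC-2 libraries, 92.1% were also seen in HSC-3, and of the 1105 on 3q 94.7%, against 93.5% over all chromosomes. In the other direction these shares were 98.3% of 343 and 99.8% of 620, against 98.3%. Both arms were close to the genome in the share of KOSC-2 regions seen in HSC-3, and 3p in the reverse. On 3q only 1 of the 620 had no KOSC-2 call, a lower share than over all chromosomes. Regions called in all 8 libraries made up 16.1% of 3p and 16.2% of 3q, against 15.9% over all chromosomes.

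These counts changed with the libraries and the length of the lists. The alternatives were counted on 3p and 3q alone. Whether such changes are particular to chromosome 3 therefore cannot be told. Without the 3 libraries of low enrichment 3p had 116 regions of the KOSC-2-only class and 81 of the other, and 3q had 168 and 87. With lists of equal length there were 24 and 9 on 3p and 24 and 10 on 3q. Leaving out KOSC-2 0 Gy replicate 1 alone gave 113 and 9 on 3p and 156 and 6 on 3q. Leaving out 1 of the short HSC-3 lists, 0 Gy replicate 2 or 8 Gy replicate 1, gave 55 and 8 or 52 and 16 on 3p, and 63 and 3 or 63 and 9 on 3q. Without HSC-3 0 Gy replicate 1 there were 100 and 2 on 3q, and without HSC-3 8 Gy replicate 2 there were 101 and 1.

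Along the chromosome, bin 1 held the most KOSC-2-only regions, 12 of 147 (8.16%), followed by bin 2 with 10 and bins 6 and 11 with 9 each. Bin 4 held 1. In the stretch from 0 to 12 Mb 16 of 215 regions (7.44%) were KOSC-2-only, and from 98 to 110 Mb 12 of 327 (3.67%). Both stretches had been chosen for a lower HSC-3 level, which favours such regions. HSC-3-only regions lay in bins 3, 4, 5, 7, 8 and 14, with at most 2 in a bin.

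**Figure D5:**
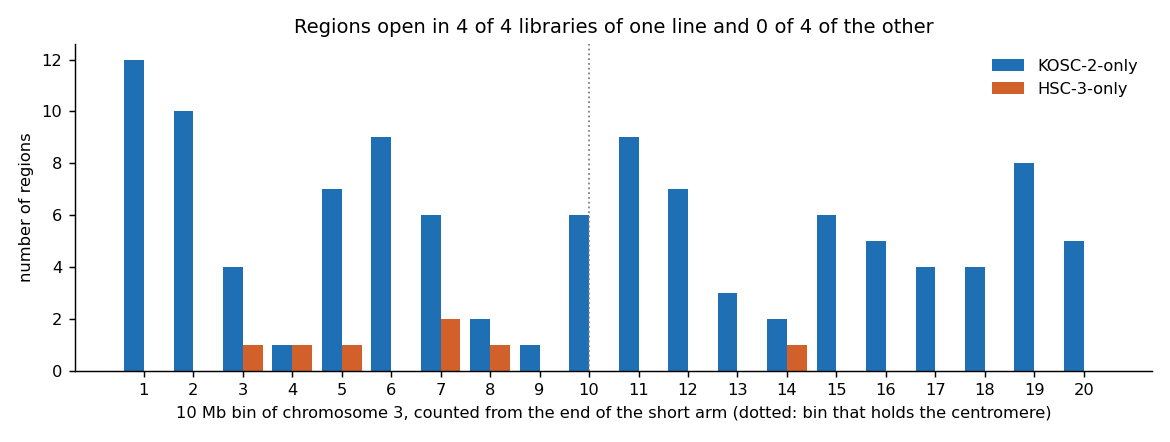
Number of regions called in all 4 libraries of one line and none of the other, in the 20 bins of 10 Mb along chromosome 3 (dotted line, the bin with the centromere). KOSC-2-only regions are found in every bin, with 12 in bin 1, and HSC-3-only regions in 6 bins.

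Single regions show what these classes look like. Each region is described by its percentile by p-value within each library's own list and by its fold. The fold is the authors' enrichment at the summit over the local background of that peak. The strongest region called in all 8 libraries on 3p was chr3:38065819-38066920, with a mean percentile of 99.1 and folds from 8.67 to 13.7. On the same arm chr3:88107624-88108903 reached folds of 11.7 to 14.9, and chr3:33481085-33482733 folds of at least 10.1 in every library. On 3q the strongest was chr3:131100139-131101111, with folds of 14.1 to 18.1, followed by chr3:167452085-167453690 (9.98 to 13.7) and chr3:93698614-93699571 (14.8 to 16.9). The last of these lies close to the first region of the arm, next to the centromere. Each of these 6 regions, chosen as the strongest of those called in all 8, was above the 96th percentile of its list in every library.

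The widest regions called in all 8 were of moderate strength. On 3p chr3:14165749-14167676 was 1928 bp wide with folds of 5.36 to 8.61. On 3q chr3:143689884-143692235 was 2352 bp wide with folds of 6.16 to 8.31. The 3q region ranked at percentiles of 88.7 to 93.7 in KOSC-2 and 61.4 to 72.1 in HSC-3, while its folds were 6.50, 6.26, 6.16 and 6.33 in KOSC-2 and 7.21, 8.17, 6.65 and 8.31 in HSC-3. Rank and fold thus put the lines in opposite order there.

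Some KOSC-2-only regions were strong. The foremost on 3p, chr3:4909839-4910495, lies in the stretch with the lower HSC-3 share and had folds of 10.7, 16.9, 15.9 and 15.0 in the KOSC-2 libraries and no call in HSC-3. Next on that arm were chr3:21058692-21059488, with folds of 11.3 to 15.0, and chr3:36421610-36422593, with 8.60 to 13.7. On 3q chr3:157260495-157261584 had folds of 8.42, 12.8, 10.2 and 14.5. It was followed by chr3:127466476-127467319 (4.43 to 7.41) and chr3:124774459-124775378 (4.19 to 8.59). Each of these regions, on both arms, was at its lowest fold in KOSC-2 0 Gy replicate 1, the library of low enrichment in that line.

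The foremost HSC-3-only region on 3p was chr3:27410707-27411224, with folds of 13.5, 9.48, 8.34 and 12.9 in the HSC-3 libraries and no call in KOSC-2. On the same arm chr3:40085636-40086472 had folds of 7.61 to 12.3 and chr3:64412163-64412644 folds of 5.61 to 12.1. The single HSC-3-only region of 3q was chr3:134369563-134370329, with folds of 5.88, 6.70, 5.08 and 8.79, in bin 14, where HSC-3 had the higher share of peaks.

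As a class, the line-only regions ranked below the regions called everywhere, an order that the definitions of the classes favour. A region called in all 8 had to pass the caller in every library. Each mean percentile also covers only the libraries with a call. The median over regions of the mean percentile was 44.8 for KOSC-2-only regions on 3p and 39.0 on 3q. For regions called in all 8 it was 71.2 on 3p and 77.8 on 3q. The 6 HSC-3-only regions of 3p had a median of 49.4.

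Irradiation was compared within each line, as the values at 8 Gy less those at 0 Gy. With 2 libraries a dose, an exact permutation within lines has 36 assignments and cannot go below p = 0.0556. Neither arm's peak share separated the doses in both lines. The 3p share moved by 0.00992 percentage points in KOSC-2 and -0.136 in HSC-3 (-0.0631 over both, exact permutation p = 0.444). The 3q share moved by -0.0427 and -0.209 (-0.126 over both, exact permutation p = 0.278). In HSC-3 both 8 Gy libraries lay below both 0 Gy libraries on each arm. One of them, replicate 1, had the lowest enrichment of all, and without the 3 libraries of low enrichment the values were -0.00141 on 3p and 0.0299 on 3q. None of the 41 arms (0%) separated the doses in both lines in the same direction by peak share. By bin, 0 of 20 did so on chromosome 3, against 2.36% of 296 bins, and by local background again 0 of 20, against 1.76% of 284 bins.

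The rank of shared regions on 3q was the measure that separated the doses in both lines. Among regions called in all 8 libraries, the median percentile on 3q was 60.1 and 58.7 at 0 Gy and 54.1 and 56.8 at 8 Gy in KOSC-2. In HSC-3 it was 52.7 and 56.6 at 0 Gy and 51.1 and 48.2 at 8 Gy. The irradiated libraries were the lower ones in each line, with changes of -3.89 points in KOSC-2 and -4.96 in HSC-3. The mean change was -4.42 (exact permutation p = 0.0556, the smallest possible, adjusted p = 1 over 41 arms). On 2.44% of the arms, that is on 3q alone among 41, the doses separated in this way in both lines. Without HSC-3 0 Gy replicate 2 the change was -1.47 and without HSC-3 8 Gy replicate 1 it was -2.91, and in both cases the doses overlapped. The change was -2.16 without the 3 libraries of low enrichment. The doses also overlapped when the mean was taken (-2.32) and when regions were ranked by fold (-4.92).

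The same held in 5 of 20 bins of chromosome 3, all lower at 8 Gy (bins 2, 10, 11, 12 and 19), against 6.69% of 284 bins. No adjusted p was below the threshold. Bins 11, 12 and 19 lie on 3q and bin 10 spans the centromere, so most of these bins share regions with the 3q result. The bins were not recomputed by fold, by the mean or with libraries left out. In some of those settings the doses overlapped on 3q. In bin 11 the percentiles were 82.9 and 79.4 at 0 Gy and 68.0 and 73.8 at 8 Gy in KOSC-2, and 56.9 and 55.3 at 0 Gy and 52.4 and 53.0 at 8 Gy in HSC-3. In bin 19 they were 66.8 and 64.1 against 55.7 and 61.6 in KOSC-2, and 53.4 and 56.8 against 49.6 and 46.9 in HSC-3. On 3p the median percentile moved by 1.05 points in KOSC-2 and 0.45 in HSC-3, with overlap in each line.

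Regions gained after irradiation (called in both 8 Gy libraries and neither 0 Gy library of a line) and lost ones (the reverse) made up shares of the arms close to those of the genome. KOSC-2 gained 66 regions on 3p (3.39%) and 118 on 3q (3.45%), against 3.51% over all chromosomes, and lost 18 (0.925%) and 28 (0.818%), against 0.87%. HSC-3 gained 11 on 3p (0.565%) and 23 on 3q (0.672%), against 0.68%, and lost 18 (0.925%) and 37 (1.08%), against 0.957%. KOSC-2 0 Gy replicate 1 and, in HSC-3, 1 library of each dose had low enrichment, and their part in these counts was not tested. The regions were weak, with median percentiles of 24.9 to 35.5 over both arms, lines and directions. The definition, with a call missing in 2 libraries of the line, itself favours weak regions. The foremost gained region of KOSC-2 on 3p, chr3:16350988-16351484, was also called in 2 HSC-3 libraries, 1 of each dose. On 3q chr3:109035145-109035665 was called in the 8 Gy libraries of KOSC-2 alone, with folds of 7.86 and 12.3. The foremost lost regions of KOSC-2, chr3:24060401-24061168 on 3p and chr3:118263267-118263683 on 3q, were each called in all 4 HSC-3 libraries. Of the HSC-3 regions, the gained chr3:8781758-8782289 and chr3:151608384-151609046 and the lost chr3:148661285-148661727 were called in all 4 KOSC-2 libraries, while the lost chr3:53829150-53829656 was called in 2. Of these 8 regions, 7 were thus open in the other line too.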

How the data were processed

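ATAC-seq peak lists of 8 libraries were analysed, each called separately. Build hg19, MACS2 2.2.6, Bowtie2 2.3.4.2, deepTools, SAMtools 1.9 and FastQC 0.11.7 are listed, with no parameters, in the notes on processing by the submitters. Per peak the authors deposited a score, a fold (a ratio of summit to background), the −log10 p-value and the −log10 q-value. These are values within 1 library and served to rank or filter. The lowest −log10 q was 2.02 and a call took at least 5 to 9 reads, by library, below which no site was detectable.

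The fold, (pileup + 1) / (background + 1), and the Poisson p fix pileup and background. Only whole pileups from 2 to 400 were searched, at a tolerance of 0.0001 in −log10 p, so that they are whole is no result. A match was found for 100% of the peaks in each library. Background was scaled from 300 bp to 10 kb and was checked for wholeness on its own, which 100% passed. Exact two-sided permutation tests compared the lines (70 assignments) and, within lines, the doses (36 assignments), with Benjamini-Hochberg adjustment over all arms, chromosomes or bins and a threshold of 0.05. Bins with a mean under 20 peaks were left out (296 of 305 remained, all 20 of chromosome 3). "Did not overlap" means that all values of one line lay above all of the other.

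The arms, bins, tests and alternatives were chosen with earlier results of these data known. The regions named follow a rule on each arm: the 3 strongest and the widest called in all 8, the 3 strongest only in each line, and the strongest gained and lost per line. The bins named have the highest or lowest mean share on an arm or the 4 largest differences, and others were chosen after their values were seen. In simulated bin counts 59 of 60 bins planted with a log2 ratio of 0.8 were called, and 11 of 236 unchanged ones. These counts were Poisson draws with no further spread between libraries. The real libraries differed in enrichment, so these rates need not hold for them. Computation used Python 3.11.15, numpy 2.4.6, pandas 2.3.3 and scipy 1.17.1.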

Additional observations from a re-analysis of the deposited data

Results flagged for a closer look

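Among 50 sets of 4 libraries (for each line, the peak share and local background of both arms, the balance of the arms and the shares of the 20 bins), 6 held a library far from the other 3, all in HSC-3. Chance gives about 1 in 20. HSC-3 8 Gy replicate 1 was low for the 3p share (2.16%, others 2.37% to 2.41%), for bin 8 (0.0933%, others 0.153% to 0.160%) and for bin 13 (0.471%, others 0.541% to 0.551%). The same library was high for bin 17 (0.231%, others 0.205% to 0.209%). HSC-3 0 Gy replicate 2 was high for bin 1 (0.158%, others 0.129% to 0.132%). HSC-3 8 Gy replicate 2 was low for bin 9 (0.0487%, others 0.0620% to 0.0639%).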

How the results depend on the processing

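The 3p share kept its direction under every alternative run and lost its separation only with lists of equal length (-0.154). The 3q share separated the lines when merged regions were counted (-0.305) and without the 3 libraries of low enrichment (-0.258). The balance of the arms changed sign with peaks of −log10 q of at least 5 (0.545) and with covered bases (0.763), and separated without those 3 libraries (-0.427). The 5 of 20 bins without overlap (25%, all bins 47%) became 12 of 20 without them (60%, all bins 74.5%) and 10 of 35 with 5 Mb bins (28.6%, all bins 41.7%). The 3q share by dose changed sign without them (0.0299). The local background of 3p separated the lines with the summit pileup taken off (-0.11), only in regions above the genome-wide level (-0.12) and without the 3 libraries (-0.0695). Line-only regions on 3p and 3q numbered 58 and 60, 33 and 34 with equal lists, 152 and 205 with calls in at least 3 of 4 libraries, and 197 and 255 without the 3 libraries. For the changed settings, and with single libraries left out, no count of line-only regions was made over all chromosomes. The runs without the 3 libraries, other than for the shares and the balance by line, and all runs on percentiles were added after the data were seen. Ranked by fold, the percentile difference was -4.39 on 3p (now overlapping) and 2.36 on 3q (sign changed), and by dose -4.92 on 3q; by dose the mean gave -2.32; with equal lists 3q separated the lines (-6.19). Without the 3 libraries the percentile difference was -0.631 on 3p (now overlapping) and -2.50 on 3q (separated).

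Leaving out each library in turn gave -0.180 to -0.0955 for the 3p share, -0.362 to -0.232 for the 3q share (separated without KOSC-2 0 Gy replicate 2 or HSC-3 0 Gy replicate 2), -0.362 to 0.158 for the balance (positive without KOSC-2 0 Gy replicate 1, HSC-3 0 Gy replicate 1 or HSC-3 8 Gy replicate 2) and 6 to 8 bins (8 without HSC-3 0 Gy replicate 2). By dose it gave -0.117 to -0.00955 for 3p and -0.191 to -0.0606 for 3q. For local background it gave -0.12 to -0.0787 on 3p (separated without KOSC-2 8 Gy replicate 2, HSC-3 0 Gy replicate 2 or either HSC-3 8 Gy library) and -0.18 to -0.11 on 3q, for line-only regions 57 to 122 on 3p and 66 to 162 on 3q, and for percentiles -6.67 to -3.73 on 3p, -6.42 to -3.86 on 3q and -5.46 to -1.47 by dose on 3q.

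Differences of replicate 1 less 2 over bins correlated between groups at r from -0.364 to 0.328. The library of low enrichment was replicate 1 in KOSC-2 0 Gy and HSC-3 8 Gy and replicate 2 in HSC-3 0 Gy. These correlations therefore cannot decide whether replicate numbers pair the samples. With the replicate block the smallest exact permutation p was 0.0556, which 3p reached (difference -0.154). Separation was then judged within each replicate number, a looser rule that can only add calls. By this rule 7 bins of chromosome 3 separated against 5, with no count made over all bins. The 3q percentile (-5.27) also separated by it, although the lines overlap when all libraries are compared.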
